A study of Homo sapiens with 12 samples.

Results

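Messenger RNA of 45 genes of glycolysis and of the hypoxia response was followed in THP-1 cells, an established human monocytic leukaemia line. The genes came from a list, 24 of glucose uptake and glycolysis and 21 that encode the hypoxia-inducible factors (HIF), their regulators and their targets, and all 45 were found by symbol among 57500 gene identifiers. Of these, 44 had enough reads to be tested, and EGLN3 did not. All cells carried a lentiviral non-target shRNA and were kept in buffered DMEM with serum, so no group was of untransduced cells. The 4 groups of 3 libraries were 10% CO2 with LPS, 5% CO2 with LPS, 10% CO2 and 5% CO2. Cells spent 2 h in a gas chamber at their CO2 level and 2 h more there with or without LPS, a bacterial cell wall component sensed by TLR4, at 2.5 µg/ml. The design asks how CO2 above the usual 5% changes transcription in monocytic cells in buffered medium, at rest and during an inflammatory stimulus.

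Glycolysis turns glucose into pyruvate in a chain of steps from the glucose transporters and hexokinases to pyruvate kinase, and lactate dehydrogenase passes pyruvate on to lactate. HIF is a pair of proteins whose alpha subunit is hydroxylated by the EGLN enzymes when oxygen is present and then degraded through VHL. When it escapes this, HIF binds short DNA elements and raises many glycolytic genes and genes for mitophagy, lipid storage and growth control. Macrophages stimulated with LPS are known for raised glycolysis and for induction of HIF1A mRNA through NF-κB.

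HIF binds elements whose core letters are ACGTG or GCGTG. The promoter stretches below are examples of what such letters look like in called members. They are of SLC2A6, HIF1A, DDIT4 and PGK1, higher with LPS, VLDLR, lower with LPS, and HK2, higher at 10% CO2. They were picked among windows that hold a match, so they say nothing of members such as SLC2A1, KDM3A, ADM or ANKZF1, which also changed with LPS and are not shown. They are from RefSeq (GRCh38.p14), written 5′ to 3′ on the gene's strand, and cover the 250 bases before a transcript start less any base of the gene's own exons. Capitals mark the core letters on either strand, so CACGT and CACGC are the reverse complements. SLC2A6 is at chr9:133479138-133479349 on the minus strand, and the others are on the plus strand: HIF1A at chr14:61695263-61695512, DDIT4 at chr10:72273674-72273919, PGK1 at chrX:78103998-78104173, VLDLR at chr9:2621537-2621786 and the second start of HK2 at chr2:74834920-74835169.
SLC2A6: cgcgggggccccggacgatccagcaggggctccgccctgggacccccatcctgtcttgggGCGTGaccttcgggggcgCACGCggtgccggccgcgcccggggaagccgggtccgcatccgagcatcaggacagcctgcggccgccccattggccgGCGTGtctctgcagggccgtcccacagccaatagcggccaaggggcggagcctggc
HIF1A: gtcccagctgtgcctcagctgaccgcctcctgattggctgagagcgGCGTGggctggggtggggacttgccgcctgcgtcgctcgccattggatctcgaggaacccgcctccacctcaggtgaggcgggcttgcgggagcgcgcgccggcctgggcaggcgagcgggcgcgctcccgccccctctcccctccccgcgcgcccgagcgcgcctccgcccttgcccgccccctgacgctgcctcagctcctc
DDIT4: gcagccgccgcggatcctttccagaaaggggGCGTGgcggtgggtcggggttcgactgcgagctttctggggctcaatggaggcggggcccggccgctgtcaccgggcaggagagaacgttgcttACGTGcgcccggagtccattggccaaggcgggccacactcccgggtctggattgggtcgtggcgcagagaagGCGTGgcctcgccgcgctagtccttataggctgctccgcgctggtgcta
PGK1: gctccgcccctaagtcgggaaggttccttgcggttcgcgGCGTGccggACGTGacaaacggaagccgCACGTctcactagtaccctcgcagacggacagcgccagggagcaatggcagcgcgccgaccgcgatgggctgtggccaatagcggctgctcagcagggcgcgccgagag
VLDLR: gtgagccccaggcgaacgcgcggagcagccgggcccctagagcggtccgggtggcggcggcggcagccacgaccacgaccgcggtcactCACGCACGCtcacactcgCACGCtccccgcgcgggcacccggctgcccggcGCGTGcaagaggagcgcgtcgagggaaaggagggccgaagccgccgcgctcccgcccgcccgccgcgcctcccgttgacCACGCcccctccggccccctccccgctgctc
HK2: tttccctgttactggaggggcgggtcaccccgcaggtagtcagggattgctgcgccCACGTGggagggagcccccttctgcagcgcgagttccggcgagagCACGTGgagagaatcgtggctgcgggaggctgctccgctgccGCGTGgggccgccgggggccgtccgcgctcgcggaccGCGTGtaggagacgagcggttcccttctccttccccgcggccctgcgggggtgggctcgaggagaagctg
SLC2A6, DDIT4 and PGK1 each hold 3 matches, VLDLR 5, HIF1A 1 and this HK2 window 6. In HK2 the capitals CACGTG are read as a match on both strands, and 9 windows of members hold that palindrome. RefSeq windows were found for 38 of the 45 members, and 31 of these genes (81.6%) held a match in the 250 bases before at least 1 of their starts, against 12945 of 27305 genes in the table (47.4%). By window the shares were 39 of 64 (60.9%) for the members and 15172 of 35116 (43.2%) for all. A match is a run of letters and not a measured binding site, and many members entered the list as HIF targets. SLC2A3, PFKFB2, BNIP3L, ZNF395, NDRG1, HILPDA and ANKZF1 had no window in the table used.

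Library totals ran from 17.1 to 22.2 M counts, and 3 counts in a library corresponded to 0.135 to 0.175 CPM (counts scaled to library size, here by TMM). THP-1 cells had testable levels of most monocyte markers, given here as a sum. Monocyte markers summed to 1093 to 1286 TPM at 10% CO2 with LPS, 1210 to 1450 TPM at 5% CO2 with LPS, 1087 to 1179 TPM at 10% CO2 and 1118 to 1269 TPM at 5% CO2, with 11 of 12 tested and FCN1 near 0. FCN1 marks mature blood monocytes. Single monocyte markers differed between groups. With LPS, 3 of the 11 were called higher and 2 lower at 10% CO2 (45.5%, against 35.2% of all genes). At 5% CO2 these were 3 and 1 (36.4%, against 24.9%). Averaged over LPS, 1 was called higher and 2 lower at 10% than at 5% CO2 (27.3%, against 16.8%). All 7 LPS response markers were higher with LPS at each CO2 level. Of markers of other cells, HBA1 and AHSP had 0 counts in all libraries, and T and B cell, erythroid and epithelial markers summed to at most 7.80 TPM in any library. The 5 fibroblast markers summed to 2.02 to 2.27 TPM at 10% CO2 with LPS, 1.56 to 2.14 TPM at 5% CO2 with LPS, 0.612 to 0.845 TPM at 10% CO2 and 0.688 to 1.05 TPM at 5% CO2. Of these, DCN and LUM were called higher with LPS from at most 22 counts in a library, and the part of other cells in the LPS results was not tested. Another difference ran with CO2. The 13 mRNAs of mitochondrial DNA took 2.25 to 4.10% of counts at 10% CO2 with LPS, against 1.27 to 1.75% at 5% CO2 with LPS. Without LPS they took 1.99 to 3.01% at 10% CO2, against 1.29 to 1.93% at 5% CO2. This share separated the CO2 levels completely, and its part in the CO2 results was not tested.

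Glycolytic enzymes were the most abundant members. Levels of different genes are compared per length, as TPM, which scales counts by gene length and library size, over nuclear genes. Averaged over the 12 libraries, enolase ENO1 had 2319.9 TPM, GAPDH 2059.7 TPM and the aldolase ALDOA 1225 TPM. The kinase gene PGK1 had 740.3 TPM, LDHB 712 TPM and LDHA 584 TPM, and TPI1, PGAM1 and PKM lay between 393 and 484 TPM. In the hypoxia group the growth inhibitor gene DDIT4 was highest (365 TPM), followed by P4HA1 (187 TPM), a subunit of collagen prolyl hydroxylase. EGLN3, the hydroxylase gene that HIF itself induces in many tissues, was at the floor: it had 2, 8 and 5 counts at 10% CO2 with LPS, 5, 7 and 3 at 5% CO2 with LPS, 1, 4 and 1 at 10% CO2 and 6, 2 and 1 at 5% CO2. Its 45 counts in all allow no statement on change.

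**Figure D1:**
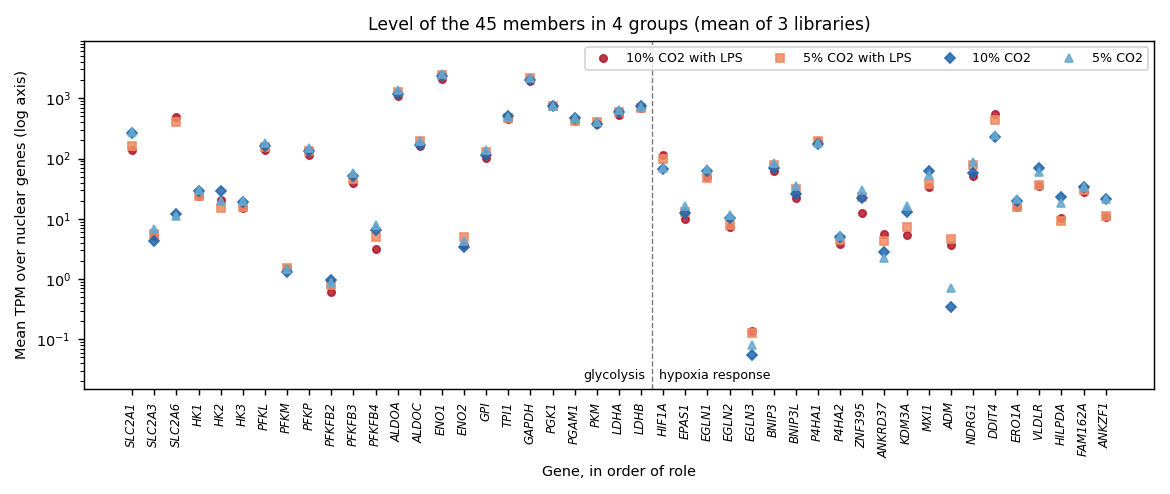
Mean level of each of the 45 members in TPM over nuclear genes (log axis) in the 4 groups, glycolysis genes left of the dashed line and hypoxia-response genes right of it. ENO1, GAPDH and ALDOA stand highest in all groups, EGLN3 lies at the bottom, and SLC2A6 and ADM show the widest gaps between groups.

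Some families were carried by 1 paralogue and others were shared. ENO1 supplied 99.8% ± 0.0515 of the 2 enolases at 10% CO2 with LPS and ALDOA 87.3% ± 1.23 of the 2 aldolases (SD, n = 3), and PFKFB3, which makes the phosphofructokinase activator fructose 2,6-bisphosphate, supplied 86.6 to 91.3% of the PFKFB genes by group. PFKL and PFKP, liver and platelet phosphofructokinase, shared that step in similar parts, while PFKM, the muscle form, stayed under 0.7% in every library. LDHB, which favours pyruvate over lactate, was the larger of the dehydrogenase genes in every library. All 3 hexokinases were used, with HK1 at 38.0 to 43.5% and HK3 at 24.7 to 29.1% by group. LDHA supplied 43.2% ± 2.28 of the pair at 10% CO2 with LPS, against 46.5% ± 0.466 at 5% CO2 with LPS (SD, n = 3). Without LPS it supplied 43.7% ± 1.53 at 10% CO2, against 46.6% ± 0.697 at 5% CO2 (SD, n = 3). The 10% and 5% CO2 libraries did not overlap at either LPS level, and without LPS their nearest values were 45.4% at 10% CO2 and 45.9% at 5% CO2.

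The transporter mix turned over with LPS. SLC2A6, which encodes GLUT6, a transporter of inner membranes, supplied 77.0% ± 2.73 of the 3 transporters at 10% CO2 with LPS, against 4.17% ± 0.567 at 10% CO2 (SD, n = 3). At 5% CO2 it supplied 70.1% ± 6.71 with LPS, against 3.88% ± 0.453 without it (SD, n = 3). SLC2A1, the GLUT1 of basal uptake, made up most of the rest. The share of HK2 was higher at 10% CO2 in every library of either LPS level. HK2, the inducible hexokinase that binds mitochondria, supplied 34.9% ± 1.22 of the hexokinases at 10% CO2 with LPS, against 27.5% ± 2.75 at 5% CO2 with LPS (SD, n = 3). Without LPS its share was 37.3% ± 2.15 at 10% CO2, against 28.1% ± 4.67 at 5% CO2 (SD, n = 3). The share of HIF1A was higher with LPS in every library of either CO2 level. HIF1A supplied 92.1% ± 0.944 of the HIF alpha subunits at 10% CO2 with LPS, against 83.8% ± 3.35 at 10% CO2 (SD, n = 3). At 5% CO2 the HIF1A share was 88.2% ± 1.55 with LPS, against 81.3% ± 0.717 without it (SD, n = 3).

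**Figure D2:**
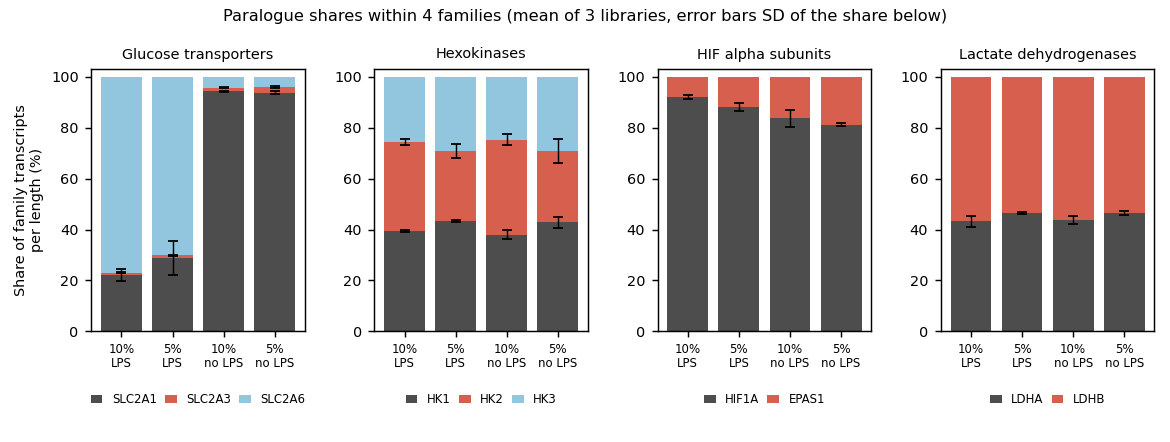
Share of each paralogue in the length-scaled transcripts of 4 families, by group (stacked bars, mean of 3 libraries, error bars the SD of the share below the bar's edge). SLC2A6 fills most of the transporter bar with LPS and little without it, and HK2 takes more of the hexokinase bar at 10% than at 5% CO2.

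The first comparison set 10% against 5% CO2. In the main edgeR fit, HK2 was the only member called higher at 10% CO2 in any of the CO2 tests. The members called lower included the mitophagy gene BNIP3L, the stress response gene NDRG1 and glycolytic genes. With LPS, edgeR with a replicate block also called DDIT4 and HIF1A higher (adjusted p = 0.0136 and 0.0335). With that block it also called NDRG1, ALDOA and GPI lower (adjusted p = 0.0372, 0.0426 and 0.0107). With a GC correction, edgeR also called SLC2A6 and DDIT4 higher there (adjusted p = 0.0192 and 0.0325) and KDM3A lower (adjusted p = 0.0465). In cells with LPS, 1 of 44 members rose at 10% CO2 (2.27%, against 4.29% of all genes) and 3 fell (6.82%, against 4.46%), so 4 were called in all (9.09%, against 8.75%), a share near that of all genes. The libraries of the 2 CO2 levels did not overlap for 18 members with LPS and 13 without, where 31.4% and 20.7% of all genes did not. In cells without LPS, 0 of 44 members were called by edgeR's quasi-likelihood test, where 1.46% of all genes were, 0.799% higher and 0.665% lower. There, 12 members had an unadjusted p under 0.05, and DESeq2 called 3, HK2 higher and BNIP3L and NDRG1 lower, where it called 6.0% of the genes it tested. Averaged over both LPS levels, with 6 libraries behind each mean, 1 member rose (2.27%, against 8.06% of all genes) and 9 fell (20.5%, against 8.69%), so 10 were called (22.7%, against 16.8%). The averaged test uses the same libraries as the separate ones. The mitochondrial share given above was higher in all 6 libraries at 10% CO2 than in those at 5% CO2 of the same LPS level. In bulk RNA, fewer cells of a kind and less RNA per cell cannot be told apart.

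HK2 (ENSG00000159399, chr2:74833981-74893359, GRCh38), which catalyses the first step of glycolysis, was higher at 10% CO2. With LPS, HK2 stood at 40.0, 33.0 and 32.4 CPM at 10% CO2, against 27.3, 25.3 and 21.3 CPM at 5% CO2. Without LPS, HK2 stood at 47.6, 37.6 and 38.0 CPM at 10% CO2, against 33.0, 21.8 and 27.8 CPM at 5% CO2. Compared within the same LPS level, the libraries at 10% CO2 lay above those at 5% CO2 without overlap. With LPS the change was 0.51 ± 0.15 (adjusted p = 0.0365), without LPS 0.57 ± 0.14 (adjusted p = 0.0524), and averaged 0.54 ± 0.10 (adjusted p = 0.00216). The call with LPS was lost when any 1 of the 6 libraries with LPS was left out (adjusted p 0.0528 to 0.116), while the averaged call held in all 18 alternatives. The other hexokinases differed by less than their error: HK1, the housekeeping form, had 0.01 ± 0.09 and HK3, the form of blood cells, −0.05 ± 0.11 averaged over LPS.

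Further down the pathway the called members fell. With LPS, PFKFB4 stood at 5.09, 4.24 and 6.68 CPM at 10% CO2, against 8.68, 9.36 and 7.38 CPM at 5% CO2. Without LPS, PFKFB4 stood at 9.02, 7.60 and 11.2 CPM at 10% CO2, against 10.4, 13.3 and 9.84 CPM at 5% CO2. PFKFB4, whose enzyme sets fructose 2,6-bisphosphate, had its low libraries at 10% CO2 with LPS, which lay below all others. It fell by 0.65 with LPS (SE 0.19, adjusted p = 0.0384), and it had −0.27 ± 0.18 (adjusted p = 0.455) without LPS and −0.46 ± 0.13 (adjusted p = 0.0205) averaged. The call with LPS was lost without replicate 1 or 2 of either group with LPS (adjusted p 0.102 to 0.211). PFKFB3 did not pass at any setting of LPS. With LPS, PFKFB3 stood at 69.0, 53.7 and 58.3 CPM at 10% CO2, against 84.0, 67.7 and 54.6 CPM at 5% CO2. Without LPS, PFKFB3 stood at 72.1, 58.2 and 69.5 CPM at 10% CO2, against 85.0, 69.1 and 65.3 CPM at 5% CO2. Its groups overlapped at both LPS levels, and the averaged change was −0.16 ± 0.10 (adjusted p = 0.307).

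GPI, the enzyme that turns glucose 6-phosphate into fructose 6-phosphate, was lower at 10% CO2. With LPS, GPI stood at 229, 260.1 and 275 CPM at 10% CO2, against 292, 322 and 329 CPM at 5% CO2. Without LPS, GPI stood at 211, 267 and 263 CPM at 10% CO2, against 275, 318 and 287 CPM at 5% CO2. The libraries did not overlap at either LPS level, and the averaged change was −0.28 ± 0.07 (adjusted p = 0.0115), a call held in all 18 alternatives. The aldolases, which split fructose 1,6-bisphosphate, also fell when averaged over LPS: ALDOA had −0.21 ± 0.06 (adjusted p = 0.0168) and ALDOC −0.24 ± 0.08 (adjusted p = 0.0467). With LPS, ALDOA stood at 1774, 1868 and 1953 CPM at 10% CO2, against 2112, 2122 and 2283 CPM at 5% CO2. Without LPS, ALDOA stood at 1540.0, 1771 and 1791 CPM at 10% CO2, against 1868, 2124 and 1846 CPM at 5% CO2. ALDOA groups did not overlap at either LPS level. With LPS, ALDOC stood at 118, 118 and 152 CPM at 10% CO2, against 149, 155 and 166 CPM at 5% CO2. Without LPS, ALDOC stood at 101, 114 and 134 CPM at 10% CO2, against 126, 149.9 and 129 CPM at 5% CO2. ALDOC groups overlapped at both LPS levels, and its call was lost in 12 of 18 alternatives (adjusted p up to 0.153), that of ALDOA in 4 (up to 0.0648).

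With all libraries, the main edgeR fit called none of the other enzymes between CO2 levels. LDHA, which makes lactate, is a classic HIF target. With LPS, LDHA stood at 861, 848 and 999 CPM at 10% CO2, against 905, 1065 and 1061 CPM at 5% CO2. Without LPS, LDHA stood at 862, 920.4 and 788 CPM at 10% CO2, against 852, 971 and 936 CPM at 5% CO2. The groups overlapped, with an averaged change of −0.13 ± 0.06 (adjusted p = 0.159). With the replicate block and GC correction, edgeR called LDHA lower at 10% CO2 with LPS (−0.19, adjusted p = 0.0497). Enolase ENO1 had −0.14 ± 0.05 (adjusted p = 0.0914). The neuronal enolase ENO2, with a mean under 5 CPM, had a larger averaged change of −0.36 ± 0.18 (adjusted p = 0.176) and passed only without replicate 3 at 10% CO2 (adjusted p = 0.0450). On average over LPS, phosphofructokinases PFKL and PFKP had −0.14 ± 0.06 (adjusted p = 0.149) and −0.19 ± 0.07 (adjusted p = 0.0768), and GAPDH −0.14 ± 0.07 (adjusted p = 0.167). PGK1, PGAM1, TPI1, PKM and LDHB ranged from −0.08 to 0.05. Of the 24 glycolysis members, 17 had a negative and 7 a positive averaged change, with a median of −0.12 against −0.01 over all genes. The same split of 17 and 7 was found with RLE size factors and after a correction for GC content, where the median was −0.07. The trend on GC content that was removed spanned from 0.0923 log2 in replicate 3 at 5% CO2 with LPS to 0.656 log2 in replicate 3 at 10% CO2. Its part in the CO2 changes was not tested beyond this correction. Summed over the 24 genes, the level was 9549 ± 548 TPM at 10% CO2 with LPS, against 10491 ± 456 TPM at 5% CO2 with LPS (SD, n = 3). Without LPS it was 9899 ± 499 TPM at 10% CO2, against 10546 ± 569 TPM at 5% CO2 (SD, n = 3), and the libraries overlapped at both LPS levels.

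In the hypoxia group the clearest falls at 10% CO2 were those of BNIP3L, ZNF395 and NDRG1. BNIP3L (ENSG00000104765, chr8:26382898-26505636) encodes the mitophagy receptor NIX. With LPS, BNIP3L stood at 30.5, 21.5 and 27.5 CPM at 10% CO2, against 37.3, 38.0 and 36.4 CPM at 5% CO2. Without LPS, BNIP3L stood at 30.1, 22.8 and 25.1 CPM at 10% CO2, against 36.6, 33.8 and 36.3 CPM at 5% CO2. Libraries at 10% CO2 lay below those at 5% CO2 throughout. The change was −0.49 ± 0.12 (adjusted p = 0.0195) with LPS, −0.45 ± 0.12 (adjusted p = 0.0673) without LPS and −0.47 ± 0.09 (adjusted p = 0.00163) averaged. Its paralogue BNIP3 had −0.30 ± 0.11 (adjusted p = 0.0874) averaged and did not pass. The call of BNIP3L with LPS was lost without replicate 1 or 2 at 5% CO2 with LPS (adjusted p = 0.0685 and 0.0766) and without replicate 2 at 10% CO2 with LPS (0.143).

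ZNF395 (ENSG00000186918, chr8:28345585-28402701), a zinc finger gene induced by hypoxia in several cell types, fell most among the members called with LPS. With LPS, ZNF395 stood at 23.8, 13.6 and 22.8 CPM at 10% CO2, against 37.2, 43.2 and 29.0 CPM at 5% CO2. Without LPS, ZNF395 stood at 29.4, 29.3 and 31.3 CPM at 10% CO2, against 39.7, 47.0 and 37.8 CPM at 5% CO2. Groups did not overlap at either LPS level, and replicate 2 at 10% CO2 with LPS, the library with the highest mitochondrial share (4.10%), was the lowest of all. The change was −0.86 ± 0.18 (adjusted p = 0.0108) with LPS, −0.47 ± 0.17 (adjusted p = 0.18) without LPS and −0.66 ± 0.13 (adjusted p = 0.003) averaged. With LPS the call was lost when the other groups were left out of the fit (adjusted p = 0.0691) and without replicate 2 at 5% CO2 with LPS (0.0526). ZNF395 shares 2032 exon bases on the same strand with FBXO16, which had 271 counts in all against 7727 for ZNF395, so a small part of its reads is uncertain.

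NDRG1, a stress response gene known as a HIF target, showed the same pattern at a higher level. With LPS, NDRG1 stood at 165, 102 and 146 CPM at 10% CO2, against 232, 229 and 171 CPM at 5% CO2. Without LPS, NDRG1 stood at 148, 109.9 and 139 CPM at 10% CO2, against 212, 225 and 163 CPM at 5% CO2. Within each LPS level, the libraries at 10% CO2 lay below those at 5% CO2. Its change was −0.61 ± 0.19 (adjusted p = 0.0711) with LPS, −0.60 ± 0.19 (adjusted p = 0.14) without LPS and −0.60 ± 0.14 (adjusted p = 0.0119) averaged. BNIP3L, ZNF395 and NDRG1 kept their averaged calls in all 18 alternatives. EPAS1, the HIF-2 alpha subunit, and KDM3A, a histone H3 lysine 9 demethylase, also fell on average, by 0.35 (SE 0.10, adjusted p = 0.0183) and 0.34 (SE 0.09, adjusted p = 0.0179). With LPS, EPAS1 stood at 22.5, 17.4 and 20.9 CPM at 10% CO2, against 27.3, 27.7 and 23.4 CPM at 5% CO2. Without LPS, EPAS1 stood at 22.6, 17.1 and 25.9 CPM at 10% CO2, against 30.3, 26.2 and 26.6 CPM at 5% CO2. EPAS1 libraries did not overlap at either LPS level. The values of KDM3A are given with the LPS results, and its libraries overlapped with LPS and not without it. The averaged calls of EPAS1, KDM3A and PFKFB4 were each lost on leaving out replicate 2 at 10% CO2 with LPS (adjusted p = 0.0685, 0.0661 and 0.0729), and each also in 3 more alternatives.

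**Figure D3:**
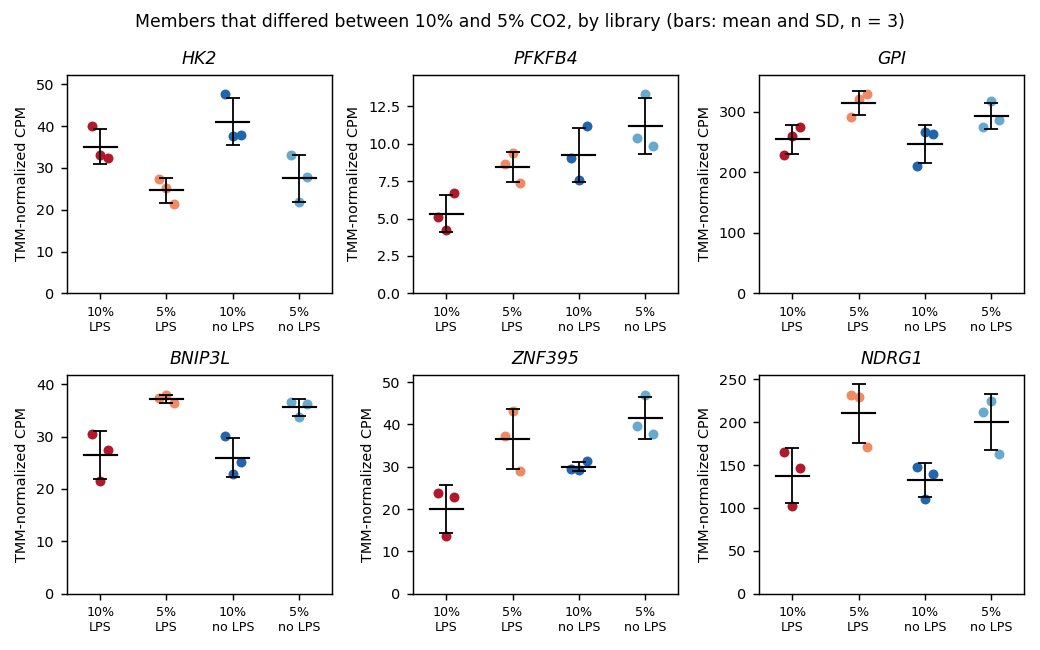
TMM-normalized CPM in each library (dots) with group mean and SD (bars, n = 3) for 6 members called between 10% and 5% CO2 when averaged over LPS. HK2 is higher at 10% than at 5% CO2 at each LPS level, and GPI, BNIP3L, ZNF395 and NDRG1 are lower without overlap. For PFKFB4 the groups without LPS overlap.

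HIF1A itself was not called between CO2 levels in the main fit. Its change was 0.26 ± 0.09 (adjusted p = 0.0753) with LPS and −0.09 ± 0.09 (adjusted p = 0.639) without. The oxygen sensors EGLN1 and EGLN2, which encode PHD2 and PHD1, had averaged changes of −0.02 and −0.12. SLC2A3, the high-affinity GLUT3, had −0.69 ± 0.22 (adjusted p = 0.11) without LPS, with groups apart, and −0.07 ± 0.21 (adjusted p = 0.882) with LPS. It has a near-identical copy, SLC2A14, so its reads may be split. The remaining HIF targets had averaged changes from −0.71 for ADM, which is near the floor, to 0.38 for ANKRD37, and none passed. Of the 20 tested hypoxia members, 14 had a negative and 6 a positive averaged change, with a median of −0.04.

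These CO2 counts moved with single libraries. With LPS, the members called were 0 without replicate 2 and 1 without replicate 1 at 5% CO2 with LPS, 8 without its replicate 3, and 1 without replicate 2 at 10% CO2 with LPS, against 4 with all libraries. The averaged count was 6 without replicate 2 at 5% CO2 with LPS, 6 without replicate 2 at 10% CO2 and 5 without replicate 2 at 10% CO2 with LPS, against 10 with all. Over all genes, the calls with LPS in those runs were 458, 414, 1804 and 271, in the same order, against 1435 with all libraries. The averaged calls over all genes were 1977, 1664 and 1687, against 2748. After the GC correction 3 members rose and 4 fell with LPS, and 3 rose and 7 fell on average. Over all genes, that correction gave 1727 and 3359 calls.

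The second comparison was between cells given LPS and cells not given it, separately at 10% and 5% CO2. The hexose transporter SLC2A6, HIF1A and the HIF targets DDIT4 and ADM rose, while SLC2A1, the demethylase gene KDM3A and the lipid genes VLDLR and HILPDA fell. At 10% CO2, 8 of 44 members rose (18.2%, against 16.6% of all genes) and 8 fell (18.2%, against 18.6%), 16 in all (36.4%, against 35.2%). At 5% CO2, 8 rose (18.2%, against 11.8%) and 6 fell (13.6%, against 13.1%), 14 in all (31.8%, against 24.9%). The pooled shares at 10% CO2 were near those of all genes, but glycolysis and hypoxia members lay on opposite sides of them. At 10% CO2, 5 of 24 glycolysis members (20.8%) and 11 of 20 tested hypoxia members (55.0%) were called, against 35.2% of all genes. At 5% CO2 these were 4 of 24 (16.7%) and 10 of 20, against 24.9% of all genes. Libraries with and without LPS did not overlap for 18 members at 10% CO2 and for 18 at 5% CO2, where 46.1% and 39.2% of all genes did not. After the GC correction 14 rose and 7 fell at 10% CO2, and 13 rose and 6 fell at 5% CO2. Over all genes, that correction took the calls from 5773 to 6216 at 10% CO2 and from 4092 to 4856 at 5% CO2.

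SLC2A6 (ENSG00000160326, chr9:133471095-133479137) had by far the largest change of any member. At 10% CO2, SLC2A6 stood at 471, 519 and 436 CPM with LPS, against 8.38, 9.73 and 11.8 CPM without it. At 5% CO2, SLC2A6 stood at 408, 310.1 and 451 CPM with LPS, against 8.68, 10.1 and 9.19 CPM without it. Every library with LPS was far above any library without it. The change was 5.57 ± 0.16 (adjusted p = 1.48e-14) at 10% CO2 and 5.39 ± 0.16 (adjusted p = 2.54e-14) at 5% CO2. SLC2A1 went the other way. At 10% CO2, SLC2A1 stood at 198, 175 and 196 CPM with LPS, against 309, 301 and 329 CPM without it. At 5% CO2, SLC2A1 stood at 227, 245 and 186 CPM with LPS, against 334, 336 and 277 CPM without it. Its libraries with LPS lay below all libraries without it, and it fell by 0.72 at 10% CO2 (SE 0.10, adjusted p = 1.37e-05) and by 0.53 at 5% CO2 (SE 0.10, adjusted p = 0.000559). SLC2A3 had 0.53 ± 0.22 (adjusted p = 0.0713) at 10% CO2 and −0.10 ± 0.21 (adjusted p = 0.789) at 5% CO2. Summed per length, the 3 transporters reached 625 ± 21.7 TPM at 10% CO2 with LPS, against 285 ± 11.7 TPM at 10% CO2 (SD, n = 3). At 5% CO2 the sum was 569.5 ± 44.8 TPM with LPS, against 291 ± 21.3 TPM without it (SD, n = 3).

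Among the enzymes, PGK1 and PKM, which each yield ATP, rose by small steps. At 10% CO2, PGK1 stood at 1099, 1158 and 1122 CPM with LPS, against 914, 942 and 946 CPM without it. At 5% CO2, PGK1 stood at 1041, 1144 and 1152 CPM with LPS, against 913, 965 and 908 CPM without it. PGK1 libraries with LPS all lay above those without, and the change was 0.27 ± 0.07 (adjusted p = 0.00426) at 10% CO2 and 0.26 ± 0.07 (adjusted p = 0.0077) at 5% CO2. At 10% CO2, PKM stood at 926, 884 and 914 CPM with LPS, against 751, 763 and 782 CPM without it. At 5% CO2, PKM stood at 961, 929.8 and 979.7 CPM with LPS, against 829.5, 847 and 769.8 CPM without it. PKM groups were also apart, with 0.25 ± 0.07 (adjusted p = 0.00724) at 10% CO2 and 0.23 ± 0.07 (adjusted p = 0.0159) at 5% CO2. PKM lost its call with no low-count filter at both CO2 levels (adjusted p = 0.0686 and 0.0520), and at 5% CO2 also without replicate 3 of either group (0.0800 and 0.0650). PFKFB4 fell by 0.79 at 10% CO2 (SE 0.19, adjusted p = 0.0028) and had −0.40 ± 0.18 (adjusted p = 0.112) at 5% CO2. PFKFB3, which LPS is known to induce in macrophages, did not pass at either CO2 level, with −0.14 ± 0.15 (adjusted p = 0.485) and −0.09 ± 0.15 (adjusted p = 0.715). HK2 had −0.23 ± 0.14 (adjusted p = 0.235) at 10% CO2 and −0.17 ± 0.15 (adjusted p = 0.464) at 5% CO2.

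In the main fit, 19 glycolysis members were not called at either CO2 level, LDHA among them at 0.08 ± 0.09 (adjusted p = 0.553) and 0.14 ± 0.09 (adjusted p = 0.305). The called shares of the 24 were 20.8% at 10% CO2 and 16.7% at 5% CO2, below the 35.2% and 24.9% of all genes. Most of the abundant enzymes had small positive changes at 10% and at 5% CO2. GAPDH had 0.17 ± 0.10 (adjusted p = 0.181) and 0.24 ± 0.10 (adjusted p = 0.0815), and ALDOA 0.13 ± 0.08 (adjusted p = 0.208) and 0.16 ± 0.08 (adjusted p = 0.16). Some of these passed under other settings at 5% CO2. After the GC correction edgeR called GAPDH (0.33, adjusted p = 0.00479), ENO1 (0.24, adjusted p = 0.00743) and TPI1 (0.23, adjusted p = 0.0235) higher. With the replicate block alone it called GAPDH (adjusted p = 0.0211). By sign, 15 of 24 changes were positive at 10% CO2 and 17 of 24 at 5% CO2, with medians of 0.08 and 0.12 against −0.02 and −0.01 over all genes. At 10% CO2 the split depended on scaling, with 17 positive under RLE size factors and 20 after the GC correction. PFKM, PFKFB2 and ENO2 had means under 5 CPM, and PFKM and PFKFB2 share exon bases with SENP1 and YOD1 on the opposite strand, both with more counts, so they are uncertain.

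**Figure D4:**
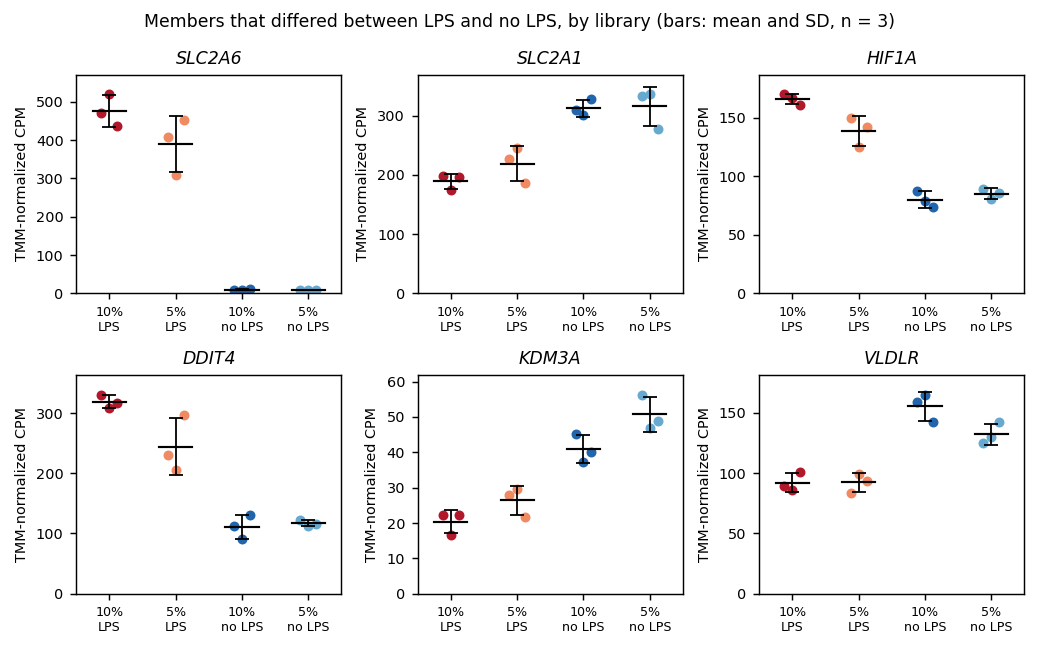
TMM-normalized CPM in each library (dots) with group mean and SD (bars, n = 3) for 6 members called between LPS and no LPS. The panels of SLC2A6, HIF1A and DDIT4 are higher with LPS and SLC2A1, KDM3A and VLDLR lower, without overlap at either CO2 level.

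HIF1A (ENSG00000100644, chr14:61695513-61748259), the inducible alpha subunit, rose with LPS. At 10% CO2, HIF1A stood at 169.9, 167 and 161 CPM with LPS, against 87.6, 78.7 and 73.6 CPM without it. At 5% CO2, HIF1A stood at 150.0, 125 and 142 CPM with LPS, against 89.2, 80.2 and 85.8 CPM without it. No library without LPS came near those with it. The change was 1.05 ± 0.09 (adjusted p = 2.04e-08) at 10% CO2 and 0.71 ± 0.09 (adjusted p = 5.54e-06) at 5% CO2. EPAS1 did not pass, at −0.11 ± 0.14 (adjusted p = 0.578) and −0.08 ± 0.14 (adjusted p = 0.712). The hydroxylase gene EGLN1 fell at 5% CO2 by 0.27 (SE 0.09, adjusted p = 0.03). At 10% CO2, EGLN1 stood at 88.8, 107 and 102 CPM with LPS, against 112, 112 and 96.3 CPM without it. At 5% CO2, EGLN1 stood at 89.8, 99.2 and 95.8 CPM with LPS, against 114, 114 and 115 CPM without it. Its groups were apart at 5% CO2 and overlapped at 10% CO2 (−0.10 ± 0.09, adjusted p = 0.402), and the call at 5% CO2 was lost in 6 of 19 alternatives (adjusted p up to 0.122). EGLN2 had −0.26 ± 0.14 (adjusted p = 0.18) and −0.33 ± 0.14 (adjusted p = 0.0946).

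DDIT4 (ENSG00000168209, chr10:72273920-72276036), whose protein REDD1 restrains mTORC1, rose strongly. At 10% CO2, DDIT4 stood at 330.4, 309 and 317 CPM with LPS, against 113, 90.5 and 129.9 CPM without it. At 5% CO2, DDIT4 stood at 230.1, 205 and 297 CPM with LPS, against 122, 113 and 116 CPM without it. Libraries with LPS were all above those without, and the change was 1.52 ± 0.13 (adjusted p = 7.61e-08) at 10% CO2 and 1.06 ± 0.13 (adjusted p = 7.61e-06) at 5% CO2. P4HA1, which hydroxylates collagen prolines, rose by 0.45 ± 0.09 at 10% CO2 and by 0.34 ± 0.09 at 5% CO2 (adjusted p = 0.000473 and 0.00612). At 10% CO2, P4HA1 stood at 176, 157 and 177 CPM with LPS, against 135, 118 and 120.3 CPM without it. At 5% CO2, P4HA1 stood at 155, 183 and 166 CPM with LPS, against 124, 135 and 138 CPM without it. The P4HA1 groups were apart at both CO2 levels, and its paralogue P4HA2 did not pass. ADM, the vasodilator peptide adrenomedullin, was scarce and rose: it averaged 2.75 ± 0.691 CPM at 10% CO2 with LPS, against 0.221 ± 0.0860 CPM at 10% CO2 (SD, n = 3). At 5% CO2 it averaged 3.47 ± 0.903 CPM with LPS, against 0.460 ± 0.190 CPM without it (SD, n = 3). The 6 libraries without LPS held 3 to 15 counts each, and the fitted changes were 3.61 ± 0.39 (adjusted p = 6.21e-07) and 2.88 ± 0.34 (adjusted p = 2.37e-06). ANKRD37, an ankyrin repeat gene and HIF target, rose by 1.18 ± 0.24 and 1.16 ± 0.26 (adjusted p = 0.0008 and 0.00219), with means of 1.36 to 3.96 CPM. It overlaps UFSP2 on the opposite strand, which had more counts, so reads of the pair cannot be told apart without the strand setting.

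The demethylase gene KDM3A fell with LPS at each CO2 level. At 10% CO2, KDM3A stood at 22.2, 16.6 and 22.4 CPM with LPS, against 45.2, 37.4 and 40.0 CPM without it. At 5% CO2, KDM3A stood at 27.8, 29.6 and 21.8 CPM with LPS, against 56.3, 47.0 and 48.9 CPM without it. The libraries were apart, with −1.0 ± 0.13 (adjusted p = 8.57e-06) at 10% CO2 and −0.94 ± 0.13 (adjusted p = 2.10e-05) at 5% CO2. VLDLR (ENSG00000147852, chr9:2621834-2660053), a lipoprotein receptor, fell as well. At 10% CO2, VLDLR stood at 88.9, 85.9 and 101 CPM with LPS, against 159, 165 and 142 CPM without it. At 5% CO2, VLDLR stood at 83.5, 99.5 and 93.8 CPM with LPS, against 125, 129.9 and 142 CPM without it. Every library with LPS was below every library without it, and the change was −0.76 ± 0.09 (adjusted p = 3.19e-06) at 10% CO2 and −0.52 ± 0.09 (adjusted p = 0.000336) at 5% CO2. The antisense VLDLR-AS1, with 1455 counts against 28633, overlaps it. HILPDA, which protects lipid droplets from lipolysis, went the same way. At 10% CO2, HILPDA stood at 5.91, 5.50 and 6.68 CPM with LPS, against 9.02, 11.2 and 13.0 CPM without it. At 5% CO2, HILPDA stood at 4.57, 5.38 and 5.71 CPM with LPS, against 8.31, 8.82 and 9.24 CPM without it. It had −0.87 ± 0.16 (adjusted p = 0.000204) and −0.75 ± 0.16 (adjusted p = 0.00142), with groups apart at both CO2 levels.

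ANKZF1, a factor of ribosome quality control, fell too. At 10% CO2, ANKZF1 stood at 17.9, 16.7 and 19.3 CPM with LPS, against 26.3, 31.9 and 32.5 CPM without it. At 5% CO2, ANKZF1 stood at 18.4, 18.4 and 20 CPM with LPS, against 29.2, 32.0 and 29.0 CPM without it. Its groups were apart, at −0.75 ± 0.11 (adjusted p = 1.85e-05) and −0.67 ± 0.11 (adjusted p = 9.77e-05). MXI1, which antagonises MYC, was called at 10% CO2 only, and a difference between CO2 levels was not shown (interaction −0.35 ± 0.18, adjusted p = 0.845). At 10% CO2, MXI1 stood at 36.2, 44.9 and 50 CPM with LPS, against 59.2, 72.7 and 69.5 CPM without it. At 5% CO2, MXI1 stood at 43.0, 56.3 and 45.8 CPM with LPS, against 52.6, 61.6 and 60.3 CPM without it. The libraries were apart at 10% CO2 and overlapped at 5% CO2, with −0.62 ± 0.13 (adjusted p = 0.000757) and −0.27 ± 0.13 (adjusted p = 0.134). ZNF395 likewise passed at 10% CO2, at −0.58 ± 0.18 (adjusted p = 0.0203), and not at 5% CO2, at −0.19 ± 0.17 (adjusted p = 0.494). Its call was lost in 5 of 19 alternatives, the GC correction among them (adjusted p = 0.0679). BNIP3, BNIP3L, NDRG1, ERO1A, an oxidase of disulfide formation, and FAM162A, a mitochondrial death factor, stayed between −0.21 and 0.09 and were not called.

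Summed per length over the 21 hypoxia genes, the level was 1234 ± 73.7 TPM at 10% CO2 with LPS, against 976 ± 56.1 TPM at 10% CO2 (SD, n = 3). At 5% CO2 it was 1171 ± 48.2 TPM with LPS, against 1061 ± 26.8 TPM without it (SD, n = 3). All libraries with LPS were above those without. Much of that sum was DDIT4, with 556 ± 22.4 TPM at 10% CO2 with LPS, against 229 ± 39.9 TPM at 10% CO2 (SD, n = 3). The median change of the tested hypoxia members was −0.10 at 10% CO2 and −0.05 at 5% CO2. The 20 genes were thus spread to both sides, with 8 positive and 12 negative changes at 10% CO2 and 9 and 11 at 5% CO2. At 5% CO2 the split was 10 and 10 under RLE size factors and after the GC correction.

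**Figure D5:**
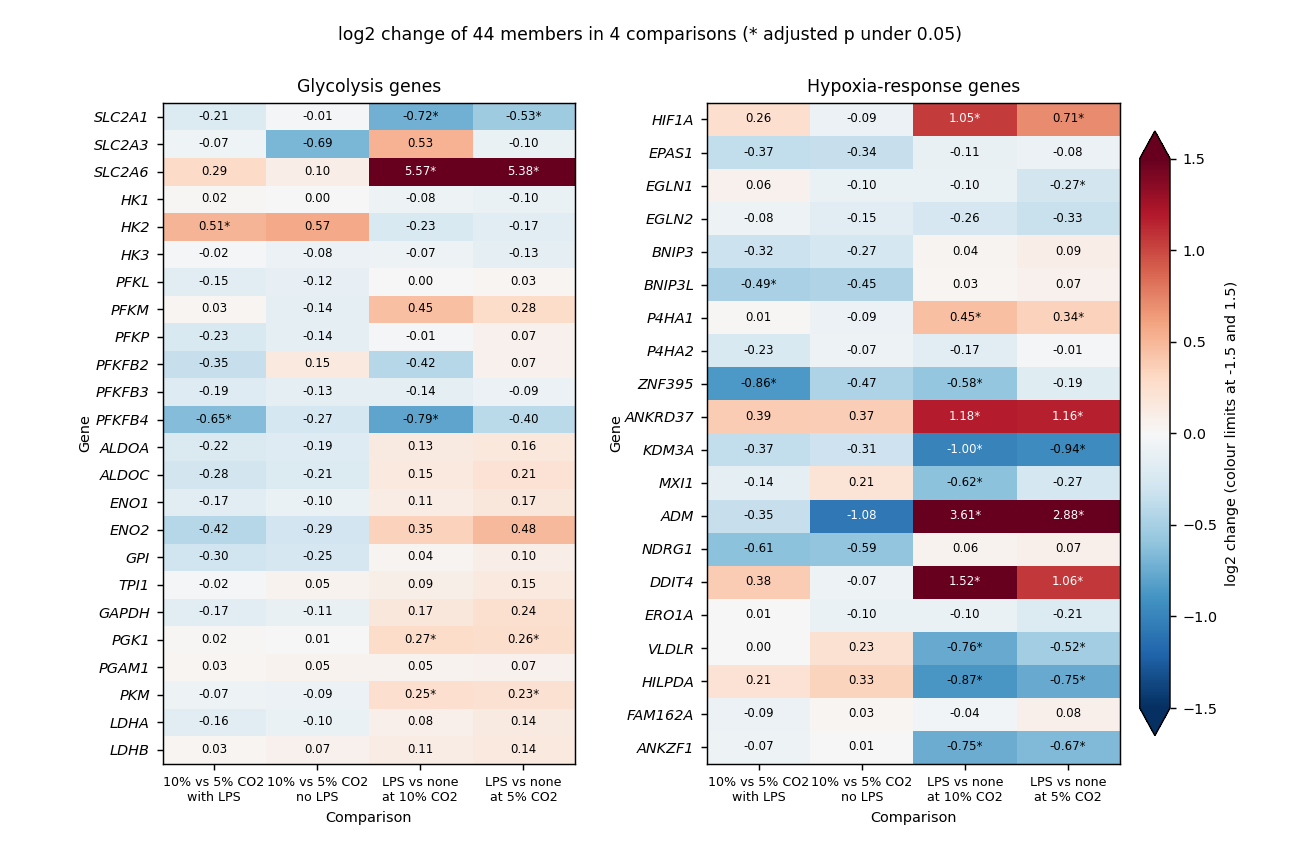
The log2 change of the 44 tested members (rows, by role) in 4 comparisons (columns), with the value printed in each cell and a star where the adjusted p was under 0.05. Red is higher and blue lower at 10% CO2 (the left pair of columns in each panel) or with LPS (the right pair), and colours saturate at 1.5. The CO2 columns hold few stars, and the LPS columns have stars on both sides.

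The third question was whether the LPS response of these genes differed between 10% and 5% CO2. By edgeR's quasi-likelihood test, 0 of 44 members had an interaction, where 0.0244% of all genes did, and DESeq2 also called 0 members, where it called 0.398% of genes. Members with an unadjusted p under 0.05 were 2. HIF1A had a change larger by 0.34 ± 0.12 at 10% than at 5% CO2 (adjusted p = 0.68), and DDIT4 one larger by 0.46 ± 0.18 (adjusted p = 0.751). Both failed the correction. In cells with LPS, all 3 libraries at 10% CO2 lay above all 3 at 5% CO2 for HIF1A and for DDIT4. The interaction uses these libraries too, so this comparison is not independent of it. The CO2 levels did not overlap there, in either direction, for 31.4% of all genes. The main edgeR fit called neither HIF1A nor DDIT4 there, at 0.26 ± 0.09 (adjusted p = 0.0753) and 0.38 ± 0.13 (adjusted p = 0.0679). With a replicate block edgeR called both (adjusted p = 0.0335 and 0.0136). DESeq2 called both in that comparison (adjusted p = 0.0431 and 0.0426). With RLE size factors edgeR called neither, and after the GC correction it called DDIT4 (adjusted p = 0.0325) and not HIF1A.

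Other genes of the same pathways were read from lists that hold none of the 45. Of 17 tested further glycolytic genes, 2 rose (11.8%, against 4.29% of all genes) and 2 fell (11.8%, against 4.46%) at 10% CO2 in cells with LPS. GPD2, the mitochondrial glycerol phosphate shuttle enzyme (0.85 ± 0.13), and MPC1, a mitochondrial pyruvate carrier subunit (0.40 ± 0.09), rose, and the fructose transporter SLC2A5 (−0.51 ± 0.12) and phosphoglucomutase PGM1 (−0.50 ± 0.13) fell. Without LPS, edgeR and DESeq2 each called 0 of these, with 4 at an unadjusted p under 0.05 in edgeR. Averaged over LPS 2 rose (11.8%, against 8.06% of all genes) and 4 fell (23.5%, against 8.69%), GPD2 and MPC1 again higher and SLC2A5 and PGM1 again lower. Of 7 pentose phosphate enzymes, RPE and RPIA, which interconvert pentose phosphates, rose with LPS present (0.90 ± 0.13 and 0.32 ± 0.08), and RPE also without it (0.66 ± 0.13). That was 2 of 7 with LPS (28.6%, against 4.29% of all genes higher) and 1 of 7 without (14.3%, against 0.799%). RPE averaged 81.7 ± 8.66 CPM at 10% CO2 with LPS, against 43.7 ± 6.95 CPM at 5% CO2 with LPS (SD, n = 3). Without LPS it averaged 79.9 ± 11 CPM at 10% CO2, against 50.6 ± 6.78 CPM at 5% CO2 (SD, n = 3).

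Of 16 tested HIF regulators, the ubiquitin ligase gene SIAH2 rose (0.38 ± 0.09) and ARNT, the partner of HIF alpha, fell (−0.39 ± 0.09) at 10% CO2 with LPS, 12.5% in all against 8.75% of all genes. Without LPS edgeR called 0 of the 16, with 5 at an unadjusted p under 0.05, and DESeq2 called 2 lower. On average 1 rose (6.25%, against 8.06% of all genes) and 4 fell (25.0%, against 8.69%), with ARNT at −0.37 ± 0.06 (adjusted p = 0.000814), the coactivator CREBBP at −0.30 ± 0.07 and the asparaginyl hydroxylase HIF1AN at −0.22 ± 0.06. Of 35 tested further HIF targets, 3 rose and 3 fell at 10% CO2 with LPS (8.57% each way, against 4.29% and 4.46% of all genes), among them TFRC, the transferrin receptor (0.46 ± 0.08), PPP1R3C, a glycogen-targeting subunit (1.00 ± 0.24), the demethylase KDM4B (−0.51 ± 0.12) and CITED2, which competes with HIF for p300 (−0.35 ± 0.09). Without LPS, STC2, a secreted glycoprotein, alone rose (0.73 ± 0.14), 2.86% against 0.799% of all genes. On average 3 rose (8.57%, against 8.06%) and 5 fell (14.3%, against 8.69%), with STC2 at 0.63 ± 0.10 and PPFIA4 at −0.47 ± 0.10. PDK1, a pyruvate dehydrogenase kinase, fell by 0.32 on average (SE 0.08, adjusted p = 0.0123) and was not called at either LPS level alone. VEGFA and the lactate exporter SLC16A3 were not called on average, at 0.00 ± 0.17 (adjusted p = 0.995) and −0.24 ± 0.09 (adjusted p = 0.076). The medians of the 35 targets were −0.19 with LPS and −0.12 without, against −0.01 in both tests over all genes.

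With LPS against no LPS, the further glycolytic genes had 3 rises and 3 falls at 10% CO2 (17.6% each, against 16.6% and 18.6% of all genes). At 5% CO2 they had 3 rises and 1 fall (17.6% and 5.88%, against 11.8% and 13.1%). GPD2 was the most changed of those that rose. It averaged 243 ± 30.1 CPM at 10% CO2 with LPS, against 59.3 ± 4.80 CPM at 10% CO2 (SD, n = 3). At 5% CO2 it averaged 134 ± 29.4 CPM with LPS, against 61.8 ± 6.67 CPM without it (SD, n = 3), with changes of 2.03 ± 0.14 and 1.12 ± 0.13. The interaction of GPD2 was 0.91 ± 0.19 (adjusted p = 0.146) and did not pass, and DESeq2 called 1 of the further glycolytic genes in that test. BPGM, which makes 2,3-bisphosphoglycerate, fell (−0.56 ± 0.14 and −0.63 ± 0.14). None of the 7 pentose phosphate enzymes was called by edgeR or DESeq2 at either CO2 level, and 0 had an unadjusted p under 0.05. HIF regulators rose in 5 of 16 cases at 10% CO2 (31.2%, against 16.6% of all genes) and in 6 at 5% CO2 (37.5%, against 11.8%). For these, edgeR and DESeq2 called 0 lower, with 7 at an unadjusted p under 0.05 at each CO2 level. Those named by the rule were SIAH2 (0.81 ± 0.09 and 0.55 ± 0.09), VHL, the ligase subunit that binds hydroxylated HIF (0.65 ± 0.08 and 0.47 ± 0.08), HSP90AB1, a chaperone (0.59 ± 0.09 and 0.34 ± 0.09), and RHEB, the activator of mTORC1 (0.34 ± 0.08 and 0.32 ± 0.08). Further HIF targets went both ways, 6 up and 9 down at 10% CO2 (17.1% and 25.7%, against 16.6% and 18.6% of all genes). At 5% CO2 they had 5 up and 6 down (14.3% and 17.1%, against 11.8% and 13.1%). These shares of short lists are descriptions with no test. The repressor gene BHLHE41 rose by 3.06 ± 0.38 and 3.90 ± 0.40 from means under 0.3 CPM, TFRC by 0.78 ± 0.09 and 0.56 ± 0.09, and CCNG2, a cyclin of growth arrest, fell (−1.40 ± 0.19 and −1.14 ± 0.18). VEGFA was not called, at 0.51 ± 0.23 (adjusted p = 0.125) and 0.22 ± 0.23 (adjusted p = 0.562). SLC16A3 rose at 5% CO2, by 0.43 ± 0.13 (adjusted p = 0.0186), and was not called at 10% CO2, at 0.19 ± 0.13 (adjusted p = 0.265).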

How the data were processed

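Polyadenylated RNA of 12 libraries was sequenced in pairs, 3 libraries for each of 4 groups. The authors deposited raw read counts per gene with gene lengths, made with Trimmomatic 0.36, STAR 2.5.2b and featureCounts of Subread 1.5.2 on GRCh38, per the submitters' processing notes. The strand setting, the treatment of multi-mapping reads and the annotation release were not given in the sources used here, so antisense partners and close copies cannot be told apart from a member. No further per-sample columns were set aside. Symbols from the reference tables matched 71.1% of 57500 identifiers, which held 99.1% of counts.

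Differences were tested on the counts with edgeR 4.0.16 under R 4.3.3 (limma 3.58.1), with TMM factors, the low-count filter by group and 1 quasi-likelihood model of the 4 group means. P-values were adjusted by Benjamini and Hochberg over the 16402 genes tested, and a gene was called at an adjusted p under 0.05. Errors after a log2 change are standard errors derived from the F statistic, and the common biological coefficient of variation was 10.7%. Interaction means the LPS change at 10% CO2 minus that at 5% CO2. TPM used the deposited lengths over nuclear genes. The labels do not tell whether libraries of 1 group are of different cultures. The p-values therefore reflect only how far these libraries spread, which may be technical. No 2 libraries of a group were alike within sampling noise, with a chi-square of 8.05 to 26.2 times its degrees of freedom.

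The 45 genes and the other lists were chosen with earlier results of these data known. Values for each library are given for members called with a mean of at least 5 CPM, at most 12 per comparison, and for SLC2A1, HK2, PFKFB3, LDHA, HIF1A, EGLN3, BNIP3L and ZNF395. From the other lists, at most 4 called genes per list and comparison with the smallest p are named, besides VEGFA, PDK1, VHL and SLC16A3. Alternatives were RLE size factors, no low-count filter, a replicate block, a GC correction (lowess, span 0.3) alone and with the block, only the compared groups, DESeq2 1.42.0, and leaving out each library. The procedure was tested on simulated data for 10% against 5% CO2 without LPS with 16086 genes: calls recovered 76% of 1.5-fold changes and 100% of 2-, 3- and 4-fold changes, and fell on 0.0818% of unchanged genes. These rates describe the simulated data, with 50 changed genes of each size. Whether they hold for the deposited libraries was not tested.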

Additional observations from a re-analysis of the deposited data

How the results depend on the processing

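Of the members called with all libraries, 12 of 14 with LPS at 5% CO2, 14 of 16 with LPS at 10% CO2, 5 of 10 on average over LPS and 0 of 4 at 10% CO2 with LPS kept their call in every alternative run. Leaving out each library gave 12 to 15 members called with LPS at 5% CO2, 15 to 16 with LPS at 10% CO2, 5 to 13 for the averaged CO2 test, 0 to 8 for CO2 with LPS and 0 to 1 for CO2 without LPS. For CO2 without LPS, where 0 members were called, 5 were called without the low-count filter, 2 after the GC correction and 3 by DESeq2. For CO2 with LPS, where 4 were called, 9 were called without the low-count filter, 7 after the GC correction and 8 by DESeq2. Over all genes these runs also gave more calls, as given below. The replicate block called 3 members for CO2 without LPS and 9 with LPS. The replicate block with the GC correction called 6 and 9 there, 24 with LPS at 5% CO2 and 25 with LPS at 10% CO2. The interaction stayed at 0 in every alternative run.

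The GC correction reversed PFKL at 10% CO2 to 0.24 with LPS (adjusted p = 0.00376), against 0.00, and with the replicate block it gave 0.24 for PFKL (adjusted p = 0.00121) and 0.17 for PFKP (adjusted p = 0.0443), against −0.01. The cause was not tested. Over all genes, CO2 without LPS gave 240 calls, against 572 without the filter, 699 with the replicate block, 848 after the GC correction, 1989 with both, 71 with only the compared groups, 696 by DESeq2 and 0 to 511 leaving out a library. CO2 with LPS gave 1435 calls, against 1689 without the filter, 2121 with the replicate block, 1727 after the GC correction and 1836 by DESeq2. With block and GC correction it gave 2955, and leaving out a library 271 to 1804. The averaged test gave 2748, against 4634 with block and GC correction and 1664 to 3005 leaving out a library. LPS gave 4092 calls at 5% CO2 and 5773 at 10% CO2, against 5902 and 7175 with block and GC correction. The interaction gave 4, against 108 without the filter, 53 by DESeq2 and 1 to 37 leaving out a library. Libraries of different groups shared only a replicate number, and the labels do not say what it stands for. Same-number deviations correlated at −0.136 to 0.29 (median 0.0973), with 8 of 18 pairs over 0.1. Different-number deviations correlated at −0.286 to 0.211 (median −0.0624), with 4 of 36 pairs over 0.1. By mean correlation, 5 of 12 libraries were closest to their own number. The main model had no replicate block, so any shared deviation stayed in its error. At the depth of these libraries EGLN3 was below what can be tested.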
